A study of Mus musculus with 5 samples.

Results

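The 33 genes described here encode transcription factors of 2 families: 18 Sox genes, without Sox2, and 15 T-box genes. They are 33 of 21631 protein-coding genes of the mouse autosomes and chromosome X. All 33 were found in the RefSeq gene table by symbol. Peaks of 3 chromatin immunoprecipitation libraries (ChIP-seq, sequencing of DNA bound to an antibody target) were assigned to each gene. A gene was called marked where a peak overlapped its body or its 2 kb flanks by at least 1 bp.

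The cells were MPI-II mouse embryonic stem cells, a line cultured over feeder cells in serum medium with LIF plus MEK and GSK3 inhibitors. The wild-type group was the parent line, and the knockout group was a monoclonal DDX5-/- derivative, hence 1 clone, made with Cas9 nickase and paired guides against the second exon of Ddx5, a gene for an RNA helicase. H2AK119ub was profiled in both genotypes, and RYBP, by an antibody to its alias DEDAF, in the parent line. Each group had 1 library, so differences cannot be checked over replicates and no p-values are printed. Intervals are 95% Wilson intervals for shares and Newcombe intervals for differences of shares, and they cover counting error over genes or peaks only. Intervals over peaks treat peaks of 1 gene as independent and can be too narrow, since Tbx5 alone held 12 wild-type H2AK119ub peaks. The set of all protein-coding genes includes the members.

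H2AK119ub is histone H2A with ubiquitin on a lysine of its tail, placed there by Polycomb repressive complex 1 at developmental genes that embryonic stem cells keep silent. RYBP belongs to the variant forms of this complex, one of which KDM2B brings to CpG-rich DNA. Sox proteins bind DNA through an HMG box and T-box proteins through the T-box domain, and members of both families direct the choice of neural, neural crest, endoderm, mesoderm, heart and limb fates.

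The wild-type list held 24235 H2AK119ub peaks over 45.9 Mb, the knockout list 20994 over 30.6 Mb, and the RYBP list 9564 over 17.2 Mb. Read depth is unknown, and all peak scores are 0, so a fall in coverage and a shallower or less enriched library cannot be told apart. A peak also does not separate fewer cells with the mark from less mark per cell. Chromosome 6, which carries Sox5, had 1.36 times the wild-type coverage in the knockout, where the other autosomes had 0.521 to 0.837 times. Chromosome X, which carries Sox3, held 50 to 67 peaks in each list. Of the listed embryonic stem cell markers, which number 8, Esrrb was marked in both genotypes and Fgf4 in the knockout alone. Of 8 fibroblast markers, which feeder cells would express, 3 were marked in each genotype. A list of a repressive mark gives no expression level, so neither list checks the cell type.

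H2AK119ub lay at 28 of the 33 genes in wild-type cells, 84.8% (69.1% to 93.3%), against 27.9% of all protein-coding genes. In the knockout it lay at 26, 78.8% (62.2% to 89.3%), against 23.6%. RYBP lay at 29, 87.9% (72.7% to 95.2%), against 37.6%. The 26 genes marked in the knockout were all marked in the wild type as well. Of the 5115 protein-coding genes marked in the knockout, 4467 were marked in the wild type too, which is 20.7% of all genes. Tbx18 and Mga were marked in the wild type alone, a class that held 7.20% of all genes. No member was marked in the knockout alone, against 3.00% of all genes. Under 2 of 10 other settings 1 or 2 members fell into that last class. They were Tbx19 with equal numbers of the widest peaks, and Sox3 and Sox14 when at least 50% of a peak had to lie in the window.

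**Figure D1:**
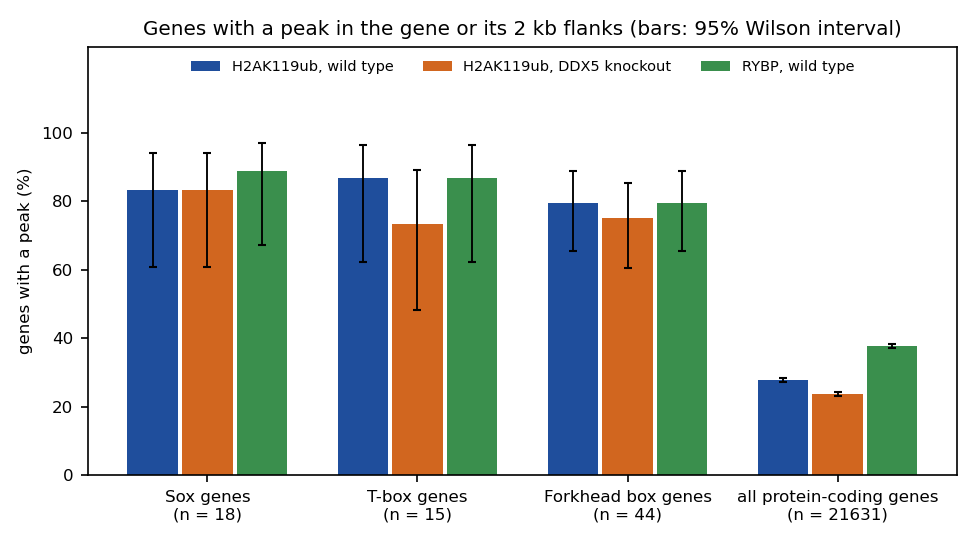
Share of genes with at least 1 peak in the gene or its 2 kb flanks, in %, for Sox, T-box, forkhead box and all protein-coding genes. Bars are the 3 libraries and lines the 95% Wilson intervals. The 3 transcription factor families lie between 73.3% and 88.9%, and all protein-coding genes between 23.6% and 37.6%.

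The families were compared in each list. In the wild type 15 of 18 Sox genes (83.3%) and 13 of 15 T-box genes (86.7%) carried H2AK119ub, a difference of -3.33 points with an interval from -27.8 to 23.5. In the knockout the counts were 15 and 11, a difference of 10.0 points (-17.5 to 37.5). RYBP was present at 16 Sox and 13 T-box genes, a difference of 2.22 points (-21.5 to 28.0). All 15 marked Sox genes and 11 of 13 marked T-box genes kept the mark, a difference of 15.4 points (-7.81 to 42.2). With peaks of at least 1 kb alone, Sox3 was marked in the wild type and not in the knockout. Each of these 4 intervals includes 0 and is wide, so neither equality nor a difference of the families is shown. Forkhead box genes, a further family of developmental regulators, gave like shares: 35 of 44 were marked in the wild type, 33 in the knockout, and 35 had RYBP. Of the 35 forkhead box genes marked in the wild type, 32 kept the mark, 91.4%.

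Gene length differed between the families, and in the wild type 24.7% of all genes under 10 kb, 28.1% of those of 10 to 50 kb and 32.4% of longer ones were marked. The median length was 5171 bp for Sox genes and 17325 bp for T-box genes. Among genes under 10 kb, 11 of 14 Sox genes and 4 of 5 T-box genes were marked in the wild type, which are 78.6% and 80.0%. All 15 of these short members kept the mark, where 1339 of 1909 such genes did, 70.1%.

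The start regions of 6 members are shown first, because they span the states found: Sox14 with all 3 peaks over its start, Sox12 with RYBP and no H2AK119ub, Tbx18 and Mga with H2AK119ub in the wild type alone, and Sox15 and Tbx6 with no peak at all. Each is the stretch of 250 bases before the start site, 5′ to 3′, from RefSeq (build GRCm38.p6, coordinates as in mm10), with every CG dinucleotide in capitals. The stretches are Sox14 at chr9:99876171-99876420 (minus strand), Sox12 at chr2:152398047-152398296 (minus strand), Sox15 at chr11:69654787-69655036 (plus strand), Tbx18 at chr9:87731261-87731510 (minus strand), Mga at chr2:119896978-119897227 (plus strand) and Tbx6 at chr7:126781233-126781482 (plus strand).
Sox14: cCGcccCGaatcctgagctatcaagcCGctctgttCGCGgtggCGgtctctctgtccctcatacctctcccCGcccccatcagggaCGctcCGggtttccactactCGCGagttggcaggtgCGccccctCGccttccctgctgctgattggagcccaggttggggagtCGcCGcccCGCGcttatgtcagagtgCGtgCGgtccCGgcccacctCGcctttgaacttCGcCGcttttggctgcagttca
Sox12: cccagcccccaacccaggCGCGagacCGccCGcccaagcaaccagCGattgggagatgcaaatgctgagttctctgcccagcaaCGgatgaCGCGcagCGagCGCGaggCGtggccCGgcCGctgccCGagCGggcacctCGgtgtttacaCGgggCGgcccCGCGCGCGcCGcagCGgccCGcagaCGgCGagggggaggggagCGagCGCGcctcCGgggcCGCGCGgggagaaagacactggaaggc
Sox15: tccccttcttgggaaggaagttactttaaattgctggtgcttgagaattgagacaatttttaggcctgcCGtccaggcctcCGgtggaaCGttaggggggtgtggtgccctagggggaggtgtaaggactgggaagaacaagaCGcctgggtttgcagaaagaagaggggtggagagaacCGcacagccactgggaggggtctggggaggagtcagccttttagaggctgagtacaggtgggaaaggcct
Tbx18: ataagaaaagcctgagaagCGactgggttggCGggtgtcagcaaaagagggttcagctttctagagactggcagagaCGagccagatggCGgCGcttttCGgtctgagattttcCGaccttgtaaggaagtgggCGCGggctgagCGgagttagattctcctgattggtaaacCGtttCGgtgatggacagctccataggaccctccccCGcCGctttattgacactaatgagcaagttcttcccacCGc
Mga: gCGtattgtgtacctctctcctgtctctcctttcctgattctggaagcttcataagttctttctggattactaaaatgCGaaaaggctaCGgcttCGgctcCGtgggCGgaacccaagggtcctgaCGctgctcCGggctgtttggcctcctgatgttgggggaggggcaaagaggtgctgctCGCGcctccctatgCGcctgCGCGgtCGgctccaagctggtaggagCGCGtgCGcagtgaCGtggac
Tbx6: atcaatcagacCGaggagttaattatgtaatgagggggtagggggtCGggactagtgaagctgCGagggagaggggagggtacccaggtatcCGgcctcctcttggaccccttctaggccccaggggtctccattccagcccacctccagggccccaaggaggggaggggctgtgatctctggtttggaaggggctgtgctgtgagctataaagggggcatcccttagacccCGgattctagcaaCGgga

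The 2 starts without any peak, those of Sox15 and Tbx6, held 5 and 6 CG dinucleotides, and the other 4 held 15 to 35. The promoter table matched 23 of the 33 members, 12 Sox and 11 T-box, with 29 start sites. RYBP peaks reached into the 250 bases before 18 of those sites, which held 8 to 35 CG dinucleotides (median 17). The 11 sites without RYBP there held 1 to 7 (median 3), so the ranges did not overlap. These 11 belong to 8 genes, with 4 of them at Sox6, and without Sox6 the remaining 7 held 3 to 7 (median 5). The only listed Sox5 site lies inside the gene, whereas a RYBP peak (144781058 to 144783231) covers the 5′ end of Sox5. Of these 11, 2 had wild-type H2AK119ub within 2 kb of the start, at Tbr1 and Tbx4, against 16 of the 18. Over all 21045 start sites of protein-coding genes, the median was 18 where RYBP lay within 2 kb and 5 where it did not. That split is wider than the 250 bases used for the members. By the 2 kb split the member ranges overlap, since Tbx4, with 6 CG dinucleotides, had RYBP within 2 kb and Tbx19, with 7, had none. The Sox core motif ACAATG, searched on both strands, was present in 3 of the 29 sequences (1 of Sox5 and 2 of Sox6), against 8.84% of all. The T-box half-site AGGTGTGA was present in none, against 1.01%.

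Around the start, the difference between genotypes was not even across the bins. Over 11 Sox genes, the bin from 1000 to 500 bases upstream was covered by 53.3% in the wild type and by 25.6% in the knockout, whereas the first 500 bases downstream were covered by 35.6% and 36.0%. Over 10 T-box genes, the bin from 1500 to 2000 bases downstream was covered by 50.0% and 20.0%, and the last 500 bases upstream by 32.2% and 27.8%. With so few genes, 1 gene can move a bin by several points, and these bins were chosen after their values were seen. The listed sites of Sox5, Tbr1 and Mga, which are included, lie inside these genes and not at their 5′ ends. The Tbr1 site is base 61804453, where the gene begins at base 61802863. Smaller offsets occur, as at Sox13, with the site at base 133424212 and the gene's 5′ end at base 133424459. RYBP covered 81.8% of the first 500 bases downstream in Sox genes and 50.0% in T-box genes.

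**Figure D2:**
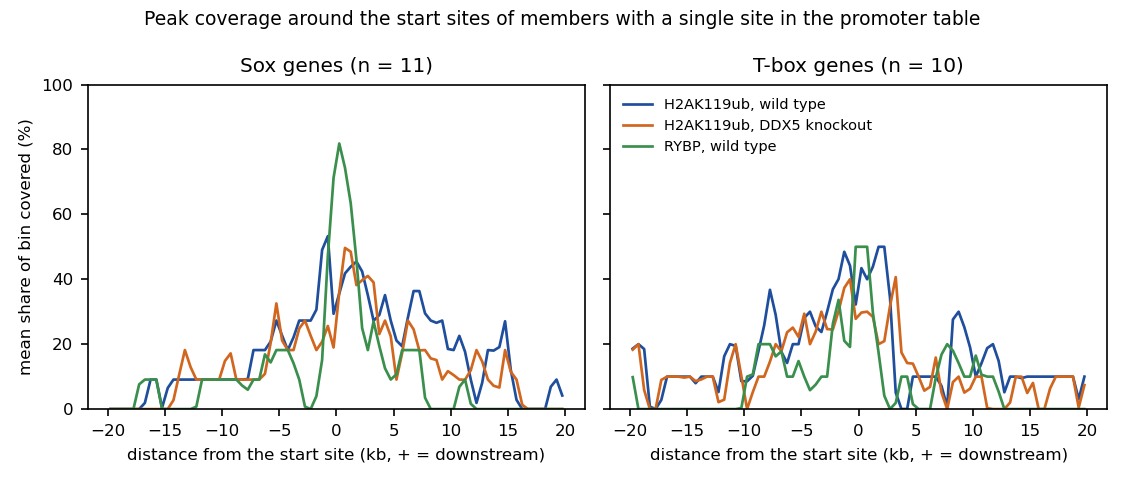
Mean share of each 500 bp bin covered by peaks, in %, within 20 kb of the start site, for the 11 Sox and 10 T-box genes with a single site in the promoter table. RYBP is highest next to the start, at 81.8% of the first bin downstream in Sox genes and 50.0% in T-box genes, and H2AK119ub spreads more widely on both sides.

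In total, wild-type peaks covered 84821 bp of Sox gene windows and knockout peaks 76295 bp, a ratio of 0.899. T-box windows held 127305 bp and 99204 bp, a ratio of 0.779. Summed over all protein-coding genes the ratio was 0.667. Among members marked in both genotypes the median ratio per gene was 0.817 for 15 Sox genes and 0.885 for 11 T-box genes, so the order of the families differs between sum and median. The median over 4467 genes was 0.718, with quartiles at 0.487 and 0.962, and 18 of the 26 members lay above that median. Over 32 forkhead box genes marked in both genotypes the median was 0.894. The Sox sum rests in part on Sox13: the ratio was 0.837 without it and 0.946 without Sox1. Without the flanks the Sox ratio was 1.03, so its direction depends on the window. For T-box genes, leaving out any single member gave 0.756 to 0.815.

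**Figure D3:**
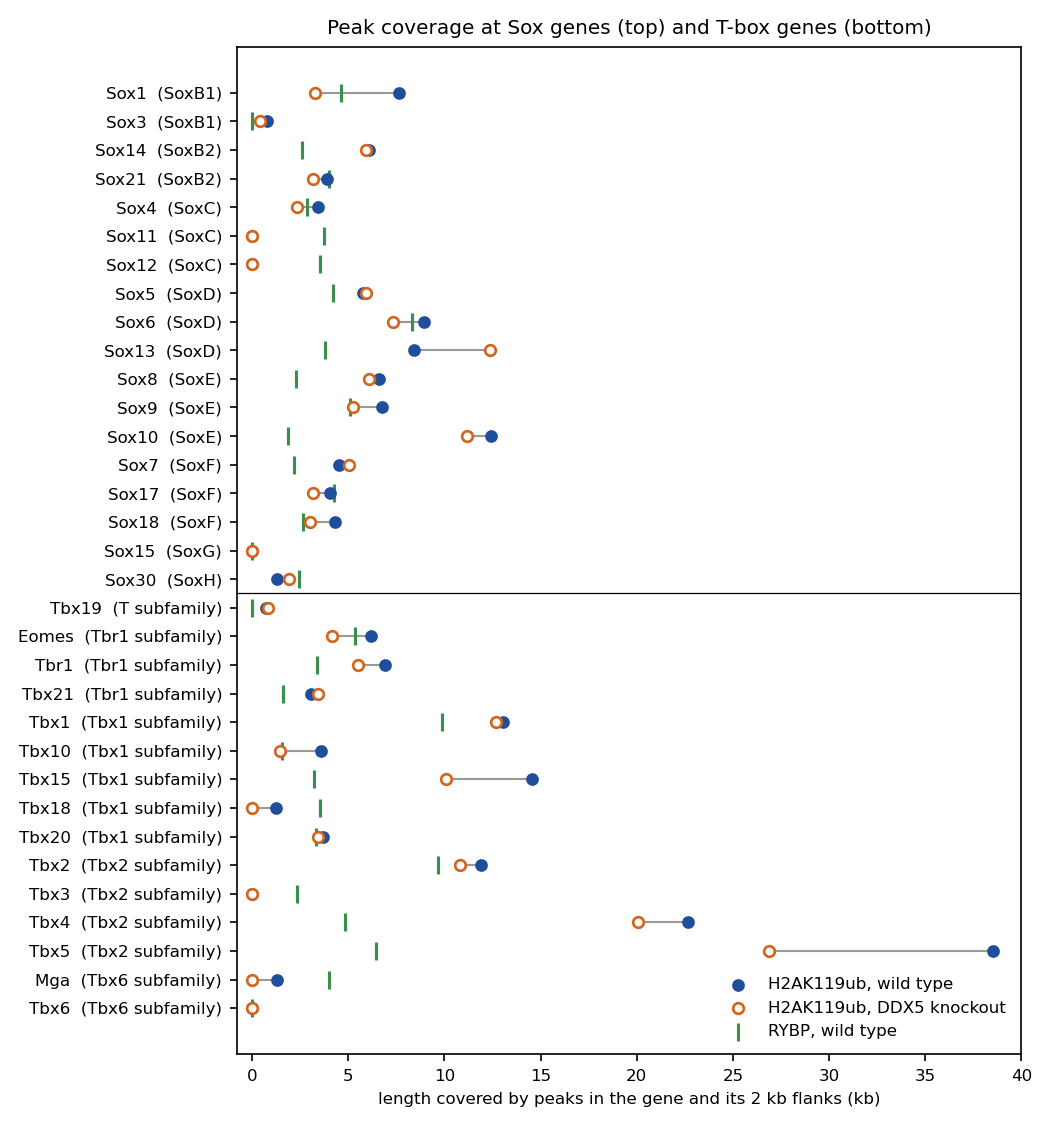
Length covered by peaks in each gene and its 2 kb flanks, in kb, with 1 library per symbol (an open circle hides the filled one where both lie at 0). For most members the knockout symbol lies at a lower value, and for Sox13 it lies higher, at 12368 bp against 8425 bp.

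Sox1 and Sox3 (SoxB1), which maintain neural progenitors, both had less coverage in the knockout. Sox1 (chr8:12395519-12399555) was covered over 7624 bp in the wild type, 3245 bp in the knockout and 4637 bp by RYBP. Upstream, a wild-type peak of 12991 bp (12380662 to 12393652) reached into the flank. Knockout peaks of 1162 bp (12381368 to 12382529) and 10623 bp (12382639 to 12393261) lay within it and ended before the flank, so they are not in the covered length. The 3 knockout peaks in the window began at base 12397205, so none lay over the start site, which in the wild type lay between peaks of 1620 bp and 633 bp that no knockout peak met. Sox1 thus had the lowest ratio among marked Sox genes, 0.426. Within 5 Mb on either side of Sox1 the ratio over all peaks was 0.247, the lowest of the 33 surroundings. Within 10 kb of the gene, the mark covered 21560 bp and 14955 bp. Sox3 (chrX:60891366-60893430) on chromosome X had a wild-type peak of 1636 bp and a knockout peak of 661 bp, of which 797 bp and 430 bp lay in its flank, and no RYBP. Its nearest RYBP peak lay 342.9 kb away.

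Sox14 and Sox21 (SoxB2), which oppose SoxB1 proteins in neural cells, had most of their wild-type coverage in the knockout as well. Sox14 (chr9:99874106-99876170) lay inside a single wild-type peak of 14610 bp, so its whole window of 6065 bp was covered. Knockout peaks covered 5923 bp, 97.7% of that window, and their summed width was 11582 bp. RYBP covered 2588 bp in 2 peaks. Sox21 (chr14:118233233-118237030) had 3872 bp in the wild type, 3165 bp in the knockout and 4016 bp of RYBP.

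The SoxC genes, active in neuronal differentiation and in many progenitors, differed among themselves in whether they carried H2AK119ub. Sox4 (chr13:28948919-28953699) had 3440 bp in the wild type, 2314 bp in the knockout and 2836 bp of RYBP. Sox11 and Sox12 had RYBP and no H2AK119ub in either genotype, a class that held 16.4% of all genes. Sox11 (chr12:27334268-27342718) carried RYBP peaks of 1112 bp (27338528 to 27339639) and 2629 bp (27340975 to 27343603), the second over its start. The nearest H2AK119ub peak lay 1210 kb away in the wild type and 5.17 kb away in the knockout, a peak of 459 bp. Sox12 (chr2:152393611-152398046) carried a RYBP peak of 3507 bp (152396260 to 152399766) over its start. Its nearest H2AK119ub peaks lay 15.5 kb and 44.5 kb away.

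The SoxD genes, which act with Sox9 in cartilage, included both genes with the most knockout peaks that met no wild-type peak. Sox13 (chr1:133382300-133424459) had 6 peaks over 8425 bp in the wild type and 10 peaks over 12368 bp in the knockout, a ratio of 1.47. Of the 10 knockout peaks, 7 overlapped no wild-type peak, and 43.9% of the wild-type length was shared. At its start, the wild-type peak (133424783 to 133425880) lay upstream and the knockout peak (133422694 to 133424047) lay inside the gene, over the RYBP peak. RYBP covered 3783 bp of the window. The flank of Sox13 also overlaps Etnk2. Within 5 Mb the ratio over all peaks was 0.568. Sox5 (chr6:143828425-144782287), which is 953863 bp long, had 5749 bp in 4 wild-type peaks and 5931 bp in 6 knockout peaks, with 4 of the 6 outside any wild-type peak, and 4187 bp of RYBP. Around Sox5 that regional ratio was 1.63, the highest of the 33. Sox6 (chr7:115470872-116040776) had 8954 bp and 7310 bp, within spans of 10609 bp and 10181 bp at the gene's 5′ end, and 8324 bp of RYBP.

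**Figure D4:**
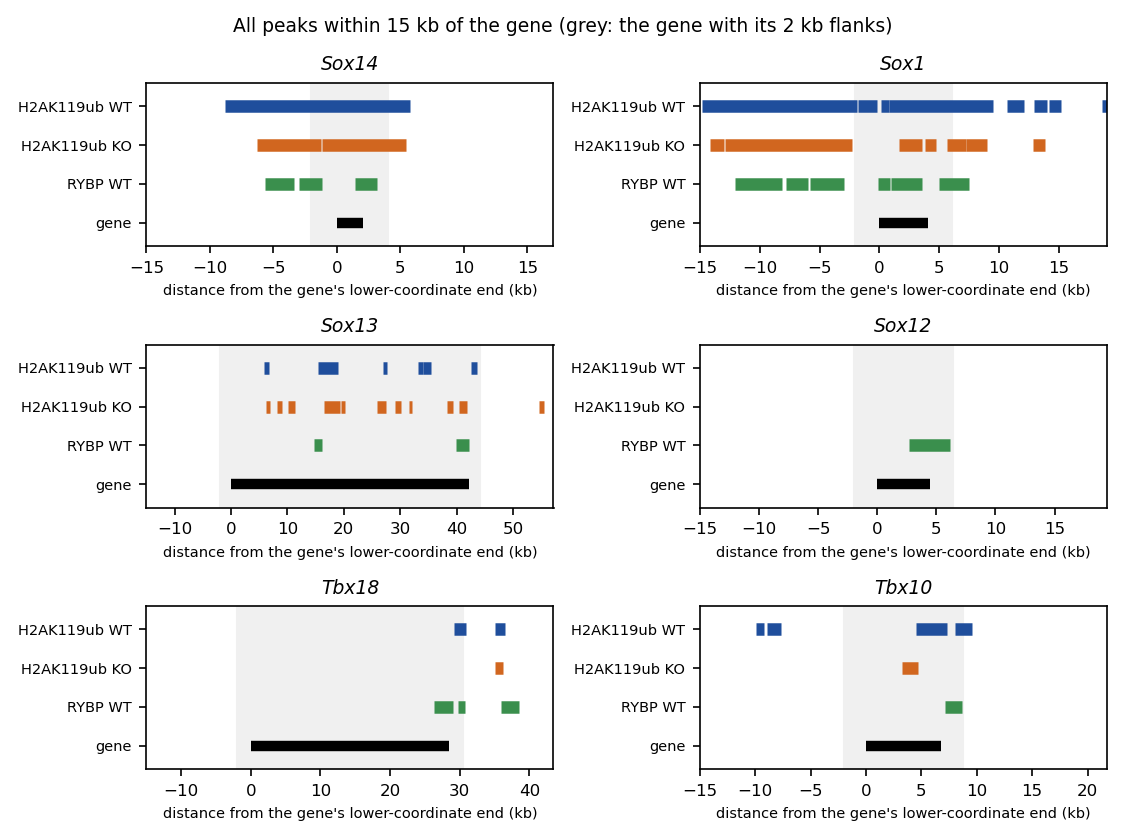
All peaks within 15 kb of 6 members, by distance from the gene's lower-coordinate end in kb, with the gene as a black bar and the flanked window in grey. Sox14 is covered in both genotypes, Sox1 has a broad upstream peak in both genotypes and no knockout peak at its start, Sox13 has 10 knockout peaks against 6 in its window, Sox12 has RYBP alone, Tbx18 has no knockout peak in its window, and the Tbx10 peaks of the genotypes barely overlap.

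The SoxE genes, regulators of neural crest, glia and testis, were all marked in both genotypes, over 55.2% or more of each window. Sox10 (chr15:79154913-79164490), the Sox gene with the most wild-type coverage, had 12420 bp there and 11168 bp in the knockout. Its wild-type peaks lay at 79153760 to 79154964, 79155004 to 79158871 and 79159144 to 79167513. Its knockout peaks lay at 79154302 to 79155353, 79155760 to 79156795, 79157031 to 79158548, 79158750 to 79159737 and 79159917 to 79168713. The RYBP peak (79162674 to 79164523) was inside the widest peak of both genotypes. Sox8 (chr17:25565893-25570686) had 6599 bp and 6066 bp with 2261 bp of RYBP, and Sox9 (chr11:112782210-112787757) had 6729 bp and 5269 bp with 5089 bp of RYBP. Between 69.1% and 87.4% of the wild-type length of these 3 genes was shared with the knockout.

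The SoxF genes direct endoderm and endothelial fates. Sox17 (chr1:4490928-4497426), the endoderm regulator, had 4023 bp under wild-type peaks and 3142 bp under knockout peaks, 3 in each list. Sox18 (chr2:181669837-181671640), a regulator of lymphatic vessels, had 4285 bp and 2988 bp. Sox7 (chr14:63943706-63950732) differed in direction, with 4536 bp and 5060 bp, the latter including a 1641 bp knockout peak in the gene that met no wild-type peak. RYBP covered 4240 bp, 2664 bp and 2196 bp of the 3 windows.

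Sox15 (SoxG, chr11:69655037-69656727), which is known from self-renewing embryonic stem cells and muscle precursors, had no peak in any list. Its nearest peaks lay 48.6 to 49.4 kb away, and its window is shared with Fxr2 and Mpdu1. Sox30 (SoxH, chr11:45979069-46017992), a regulator of spermatid development, had 1303 bp in the wild type, 1916 bp in the knockout and 2457 bp of RYBP, all at its 5′ end. Hence 4 Sox genes had more length in the knockout: Sox5, Sox7, Sox13 and Sox30.

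Of the Tbr1 subfamily, Eomes (chr9:118478186-118486132), which starts mesendoderm and trophoblast programmes, had 6176 bp of wild-type and 4140 bp of knockout H2AK119ub. RYBP covered 5334 bp there. Tbr1 (chr2:61802863-61814114), a factor of cortical neurons, had 6928 bp and 5489 bp, with 3350 bp of RYBP. Tbx21 (chr11:97098007-97115331), the regulator of T helper cells also called T-bet, had 3061 bp and 3418 bp, and most of a 4794 bp wild-type peak on its upstream side lay beyond the window. The RYBP peak of Tbx21, 1595 bp at its start, overlapped the mark over 3.45% of its length.

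In the Tbx1 subfamily, knockout coverage ranged from 92.6% of the window at Tbx1 to none at Tbx18. Tbx1 (chr16:18580979-18590671), the pharyngeal regulator, was covered over 13026 bp in the wild type, 95.1% of its window, and 12676 bp in the knockout, 92.6%. RYBP covered 9853 bp there. Tbx15 (chr3:99240348-99354260), a regulator of skeleton and skin, had 14559 bp and 10060 bp, with 3241 bp of RYBP. Tbx20 (chr9:24720812-24774303), a heart regulator, had 3677 bp and 3421 bp, with 3309 bp of RYBP. Tbx10 (chr19:3992752-3999512) had 3577 bp in 2 wild-type peaks (3997250 to 4000109 and 4000796 to 4002336) and 1423 bp in 1 knockout peak (3996029 to 3997451). Its RYBP peak of 1547 bp (3999913 to 4001459) met the mark in the wild type and not in the knockout. Only 5.65% of its wild-type length was shared, so Tbx10 counts as marked in both genotypes although the peaks lie at different places. Within 50 kb of the gene the covered lengths were 7640 bp and 1423 bp. The flank also overlaps Nudt8. With windows at the gene ends alone, Tbx10 was marked in the wild type alone.

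Tbx18 (chr9:87702800-87731260), which acts in the sinus node, ureter and epicardium, was marked in the wild type alone. Its peak (87732042 to 87733686, 1645 bp wide) lay upstream of the start, with 1219 bp inside the window. RYBP peaks lay at 87729055 to 87731800, over the start, and at 87732482 to 87733610, inside the H2AK119ub peak. The nearest knockout peak was 6.63 kb from the gene, where it met a second wild-type peak (87737880 to 87739356). With no flank, Tbx18 was unmarked in both genotypes.

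The Tbx2 subfamily regulates limbs and heart and lies in 2 neighbouring pairs. Tbx5 (chr5:119796514-119885220), which specifies the forelimb and heart, had the most coverage of all members, 38523 bp in 12 wild-type peaks and 26886 bp in 13 knockout peaks. The widest wild-type peak, at its lower-coordinate end (119794320 to 119808473, 14154 bp), was met in the knockout by 5 peaks: 119793642 to 119794701, 119796317 to 119799082, 119800603 to 119801630, 119801723 to 119806790 and 119807273 to 119808305. The next widest (119832283 to 119840974) was met by 119832067 to 119834382, 119834610 to 119839252 and 119839341 to 119841040. Beyond base 119843982, 5 wild-type peaks had no knockout counterpart. Before that base, the remaining wild-type peaks lay at 119817410 to 119818694, 119826087 to 119827284, 119828077 to 119829060, 119829457 to 119832016 and 119841104 to 119843982, beside knockout peaks at 119821978 to 119822670, 119823836 to 119825098, 119826468 to 119827046, 119828288 to 119831844 and 119841465 to 119843516. The 5 wild-type peaks beyond it lay at 119844024 to 119844836, 119854748 to 119857387, 119864507 to 119865678, 119865959 to 119866781 and 119882666 to 119884182. The 4 RYBP peaks, 6451 bp in all, lay wholly inside wild-type H2AK119ub, at 119802885 to 119805308, 119834913 to 119836362, 119839331 to 119840696 and 119841249 to 119842459. In the knockout all coverage of Tbx5 lay before base 119843982, where most of the wild-type coverage lay as well. Before that base, the wild-type peak at 119817410 to 119818694 also met no knockout peak.

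Tbx3 (chr5:119670534-119684724), the neighbour of Tbx5, which is known from self-renewing embryonic stem cells and limb margins, had no H2AK119ub in either genotype. It carried a RYBP peak of 2329 bp (119669866 to 119672194) over its lower-coordinate end. The nearest H2AK119ub peaks lay 56.9 kb from Tbx3 in the wild type and 63.8 kb in the knockout, on the side of Tbx5. In the 111.8 kb between these 2 genes, wild-type H2AK119ub covered 5.10% and knockout H2AK119ub 2.13%. The other pair was marked at both genes. Tbx2 (chr11:85832615-85841948) had 11885 bp and 10822 bp, with 9648 bp of RYBP. Tbx4 (chr11:85886367-85916097), the hindlimb regulator, had 22644 bp and 20048 bp, each in 9 peaks, with 4852 bp of RYBP, and the 44.4 kb between this pair was covered over 19.8% and 14.2%.

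Of the Tbx6 subfamily, Mga (chr2:119872503-119970129), whose product joins T-box and MAX-binding domains and is itself a subunit of a variant Polycomb complex, was marked in the wild type alone. Its only H2AK119ub peak (119897089 to 119898387, 1299 bp) lay over a start site inside the gene, within a RYBP peak (119896623 to 119898478) that also covers the Mga sequence printed above. A second RYBP peak (119871973 to 119874105) lay at the gene's lower-coordinate end without H2AK119ub. The nearest knockout peak lay 75.5 kb from the gene. With windows at the gene ends alone, Mga was marked in neither genotype. Tbx6 (chr7:126781483-126785548), which separates paraxial mesoderm from neural fate, had no peak, and RYBP lay 4.21 kb away. Its window is shared with Ypel3 and Ppp4c. Tbx19 (chr1:165137834-165160773), the pituitary factor, had peaks of 731 bp (165137131 to 165137861) and 821 bp (165138524 to 165139344) at its 3′ end that did not overlap, and no RYBP within 32.9 kb. Sox3 and Tbx19 were the 2 members with wild-type H2AK119ub and no RYBP, where 1794 of the 6025 marked genes had none.

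**Figure D5:**
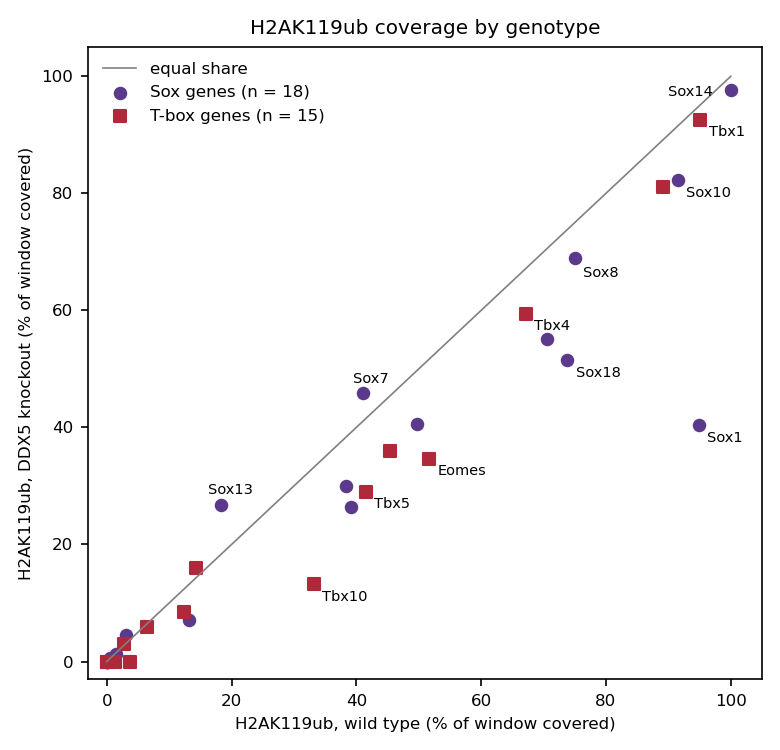
Share of each window covered by H2AK119ub, in %, in the wild type (x) against the knockout (y), with 1 point per gene and the line of equal shares. Sox1 lies far below the line at 94.9% and 40.4%, Sox7 and Sox13 lie above it, and Sox14 and Tbx1 lie near the top on both axes.

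The 33 genes held 90 wild-type and 106 knockout peaks, each counted once, although less length was covered in the knockout. Of the 26 members marked in both genotypes, 16 had more peaks in the knockout, 61.5%, where 27.5% of the 4467 genes marked in both did. At 11 members more peaks covered less length, 42.3% against 14.7%. The members also had wider peaks. Over genes marked in the wild type, the widest wild-type peak had a median of 3552 bp at members and 2020 bp at all protein-coding genes. The part of peak width in these differences was not tested. Sox6, Sox8, Sox10, Sox14 and Tbx1 are examples in which a broad wild-type peak met several knockout peaks. At 25 of the 26, the genotypes shared at least 1 bp (Tbx19 was the exception), against 91.6% of all genes marked in both.

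A knockout peak was met by 66 of the 90 wild-type peaks, 73.3% (63.4% to 81.4%), against 52.9% of peaks at all protein-coding genes, a difference of 20.4 points (10.4 to 28.5). The share was higher for wider peaks. It was 5 of 12 for peaks under 1 kb, 25 of 41 for peaks of 1 to 2 kb and 36 of 37 for wider ones. For all protein-coding genes it was 23.4%, 46.0% and 85.7%. Wider peaks made up 41.1% of the members' peaks and 29.7% of the peaks at all genes. The exception among the wider peaks was the 2640 bp peak inside Tbx5. Sox genes kept 32 of 41 peaks and T-box genes 34 of 49, a difference of 8.66 points (-9.80 to 25.8).

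Conversely, 22 of the 106 knockout peaks overlapped no wild-type peak, 20.8%, against 28.7% at all protein-coding genes, a difference of -7.96 points (-14.6 to 0.740). They lay at 11 genes, and 11 of the 22 lay at Sox5 and Sox13. Such peaks made up 14 of the 55 knockout peaks at Sox genes and 8 of the 51 at T-box genes, a difference of 9.77 points (-5.88 to 24.7).

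RYBP and wild-type H2AK119ub overlapped at a higher share of peaks here than at protein-coding genes as a whole. Of the 55 RYBP peaks, 45 overlapped wild-type H2AK119ub, 81.8% (69.7% to 89.8%), against 46.7% of RYBP peaks at all protein-coding genes, a difference of 35.1 points (22.9 to 43.2). In base pairs, 65.2% of the members' RYBP length lay inside the mark, against 36.6% over all protein-coding genes and 60.1% over forkhead box genes. The overlap was whole at Sox7, Sox10, Sox14 and Tbx5, and it was 29.9% at Sox17, where the RYBP peaks mostly lay beside the mark. It was lower still at Tbx18 (22.1%), Sox13 (20.2%) and Tbx21 (3.45%), and 0 at Sox11, Sox12 and Tbx3. Wild-type H2AK119ub peaks that overlapped RYBP met a knockout peak in 42 of 51 cases, 82.4% (69.7% to 90.4%), and those without RYBP in 24 of 39, 61.5% (45.9% to 75.1%). Over all protein-coding genes the shares were 76.6% and 43.9%. Peaks with RYBP were also wider, with medians of 2617 bp against 1456 bp at the members, and the part of width in this difference was not tested. Of the 55 RYBP peaks, 10 met no wild-type H2AK119ub, where 4506 of 8455 at all protein-coding genes met none. Among the members' RYBP peaks, 8 met H2AK119ub in neither genotype, a share not computed over all genes. These 8 lay at Sox5, Sox11, Sox12, Tbx3, Tbx18 and Mga.

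Genes that work with these factors were described from 3 lists. Of 13 POU-domain genes, whose products pair with Sox proteins on DNA, 9 were marked in both genotypes (20.7% of all genes were), none in a single genotype (7.20% in the wild type alone, 3.00% in the knockout alone), and 10 had RYBP (37.6%). Pou3f1 had 6162 bp of the mark in wild-type cells and 6220 bp in the knockout. The median ratio over the 9 was 0.912. Of 26 genes known to be regulated by Sox proteins, 22 were marked in wild-type cells, against 27.9% of all genes, and 18 of these were marked in the knockout too, against 23.6%, with no other gene marked there. The other 4 were marked in the wild type alone, against 7.20%, and 18 of the 26 had RYBP, against 37.6%. Amh, the hormone gene that Sox9 activates in the testis, had 3391 bp in the wild type alone, Dct, a melanocyte enzyme gene, 1401 bp, and Ednrb, the endothelin receptor of neural crest, 1356 bp. Col2a1, the cartilage collagen gene downstream of Sox9, had 28189 bp and 27173 bp. The median ratio over the 18 was 0.895.

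Of 29 genes known to be regulated by T-box proteins, 19 were marked in wild-type cells (27.9% of all genes were), 18 in the knockout (23.6%) and 17 in both (20.7%), and 21 had RYBP (37.6%). Nppb, a natriuretic peptide gene of the heart, had 1102 bp and Cdkn2a, a cell cycle inhibitor gene, 993 bp in the wild type alone. Gja1, a gap junction gene, had 1529 bp in the knockout alone. Hand1 had 7435 bp in both genotypes, and Fgf8 had 10260 bp and 9969 bp. The median ratio over the 17 was 0.948, beside 0.718 for all genes marked in both.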

How the data were processed

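H2AK119ub in wild-type and DDX5-/- cells and RYBP in wild-type cells were analysed from 1 peak list per library. The 2 input libraries were not analysed here. Bowtie2 2.2.5, MACS 1.4 and build mm10 are named, per the submitters' processing notes. The sources used here do not give what each tool did, the thresholds or any use of inputs. The authors deposited a separate list for each library. The deposited score column holds 0 for every peak, so peaks were used by position only, and lists of different depth can differ in number and width for that reason alone.

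Gene bodies, without exons, were taken from RefSeq for GRCm38.p6, the assembly behind mm10 with equal coordinates. Each was extended by 2 kb, and a peak sharing at least 1 bp marked the gene. Covered length counts each base once per gene. In sums over all protein-coding genes, a base in overlapping windows counts for each of those genes. Upstream sequences came from the RefSeq promoter table. Python 3.11.15, NumPy 2.4.6 and matplotlib 3.10.9 were used, and the scripts were tested on simulated data.

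The members and lists were chosen with earlier results of these data known. Every member is named. Full peak coordinates are given for members marked in 1 genotype, for the member with the most wild-type coverage in each family and for those with RYBP alone. From the partner and target lists, up to 3 genes marked in a single genotype are named. The coordinates of other members, the neighbouring pairs, the classes of peak width, the split by RYBP, and Pou3f1, Col2a1, Hand1, Fgf8 and Esrrb were chosen after their values were seen. Alternatives covered the window, the overlap, peak width and number, merging, chromosomes and single members.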

Additional observations from a re-analysis of the deposited data

How the results depend on the processing

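Of 120 values for 12 results under 10 alternatives (8 planned, 2 chosen after seeing the data), 112 stayed within 1.5 times for counts or 1.1 times for ratios. The results on members marked in 1 genotype alone were not planned. For the family counts, 11 to 16 in the main setting, 1.5 times is a wide limit, so staying within it is a weak check. Some of the 120 values could not change. No T-box gene lies on chromosome 6, 8 or X, which were left out in turn, and RYBP counts do not depend on the number of H2AK119ub peaks. The Sox ratio of covered length, 0.899, turned above 1 with no flank (1.03) and with at least 50% of a peak in the window (1.01). It was 0.776 within 2 kb of the gene ends and 0.712 with peaks of at least 1 kb. The T-box ratio, 0.779, was 0.877 with peaks within 2 kb merged and stayed under 1 throughout, from 0.736 to 0.877. The number of members marked in the wild type alone was 1 with no flank (Mga) and 3 with peaks of at least 1 kb (Sox3, Mga and Tbx18), in place of 2, and with windows at the gene ends the 2 were Tbx10 and Tbx18. Members marked in the knockout alone numbered 2 (Sox3 and Sox14) with at least 50% of a peak in the window, in place of 0. Their wild-type peaks had less than that inside, 797 of 1636 bp at Sox3 and 6065 of 14610 bp at Sox14. The number was 1 (Tbx19) when the wild-type list was cut to its 20994 widest peaks to equal the knockout list. That cut removed the 731 bp wild-type peak of Tbx19. Why peak widths differ between the genotypes was not tested. Sox genes marked in the wild type numbered 13 to 15 and T-box genes 12 to 13.

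Each group has 1 library, so no value has a replicate check. Read depth and peak height are unknown, and narrower or fewer knockout peaks cannot be told apart from a difference in depth, enrichment or clone. No paired analysis was possible because each group has a single library and no result comes from a test.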
